A study of Mus musculus with 2 samples.

Results

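The genes described here are 10 genes of the hypoxia response and of glycolysis, out of 19751 genes that the arrays measured with a probe set of their own. They are Hif1a and Egln3 of oxygen sensing, the glucose transporter gene Slc2a1, the glycolytic enzyme genes Hk2, Pfkl, Pgk1 and Ldha, and Pdk1, Bnip3 and Car9, which act on pyruvate, mitochondria and pH. The members were chosen by name from a longer hypoxia and glycolysis list whose levels and replicate differences were already known, so their values are a description and carry no test. All 10 were found by symbol in the platform's probe annotation, 9 with 1 probe set and Bnip3 with 2.

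The arrays hold RNA of fibroblastic reticular cells (FRCs), the fibroblasts that form the reticular scaffold of the lymph node. The 2 replicates form the only group: stromal cells from lymph nodes of young (4 to 6 weeks), untreated mice of strain C57BL6/J, kept in culture for 7 to 10 days (αMEM medium, 10% serum). The labels name no genetic change or agent. They leave unsaid whether each replicate is its own animal or culture, so the spread between the arrays may be technical. How the FRCs were purified from the mixed stromal culture, and the oxygen level of the culture, are not given in the sources used here.

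Cells sense oxygen through hydroxylation of the HIF alpha subunits. With oxygen present, EGLN prolyl hydroxylases mark HIF alpha for the VHL ubiquitin ligase and proteasomal breakdown, and with little oxygen HIF alpha pairs with ARNT and binds the hypoxia response element, whose core is ACGTG or GCGTG. Its known targets take up glucose, run glycolysis to lactate, keep pyruvate out of mitochondria and remove mitochondria. HIF activity is set mainly at the protein level, which arrays do not measure. Many glycolytic genes are also targets of MYC and are high in dividing cells, and cultured fibroblasts are known to be glycolytic.

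The promoter sequences come first because the core element is what HIF binds. The members were named as hypoxia response genes, many of them known HIF targets, so a core in their promoters is a description and not independent of how they were chosen. RefSeq's promoter table (build GRCm38.p6) held 12 windows for the 10 genes, each 250 bases before to 50 after an annotated start, with 2 starts for Ldha and for Pdk1. ACGTG and GCGTG were searched on both strands, and overlapping matches were joined into 1 site, as in CACGTG, which reads ACGTG on both strands and is also the E-box bound by MYC and USF factors. The stretches below belong to the 5 members that differed most between the arrays and to Pgk1, Ldha and Car9, whose human counterparts are well-studied HIF targets. Each runs 5′ to 3′ on the gene's strand, stops before the start, has up to 15 flanking bases, and shows the core, read on either strand, in capitals.

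Egln3, chr12:54204084-54204118, minus strand: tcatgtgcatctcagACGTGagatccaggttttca
Pdk1, chr2:71873131-71873165, plus strand: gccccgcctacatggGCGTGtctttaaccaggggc
Bnip3, chr7:138909522-138909638, minus strand: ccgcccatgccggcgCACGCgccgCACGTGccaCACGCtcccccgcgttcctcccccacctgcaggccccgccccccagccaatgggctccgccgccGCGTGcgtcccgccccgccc
Slc2a1, chr4:119108669-119108728, plus strand: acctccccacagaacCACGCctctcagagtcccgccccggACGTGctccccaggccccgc
Pfkl, chr10:78009887-78009921, minus strand: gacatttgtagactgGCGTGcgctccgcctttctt
Pgk1, chrX:106186935-106186988, plus strand: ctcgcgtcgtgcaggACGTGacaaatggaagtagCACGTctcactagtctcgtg
Ldha, chr7:46845644-46845789, plus strand: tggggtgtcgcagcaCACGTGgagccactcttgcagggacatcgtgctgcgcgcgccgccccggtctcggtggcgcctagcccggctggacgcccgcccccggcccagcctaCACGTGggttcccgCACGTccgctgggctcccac
Car9, chr4:43506993-43507025, plus strand: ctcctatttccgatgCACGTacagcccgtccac

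A site was present in the window of 10 of 10 members and in 11 of their 12 windows, the exception being the downstream start of Pdk1. Over the whole table, 43.8% of 32851 windows held a site, and 46.7% of 27025 genes. The members' windows are rich in G and C, with a median of 65.7% against 52.7% over all windows. Among the 7042 windows in the middle GC range of the members (57.9% to 67.3%), 64.5% held a site, and of the genes tested on the arrays 65.3% did. Searched by itself, ACGTG was found in 8 of 10 members and 21.8% of all genes, and GCGTG in 5 of 10 and 35.2%. A gene can hold both. For the single motifs no share at like GC content or among the genes tested was computed, so these contrasts are not matched for GC. A match is a stretch of letters and does not show binding.

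**Figure D1:**
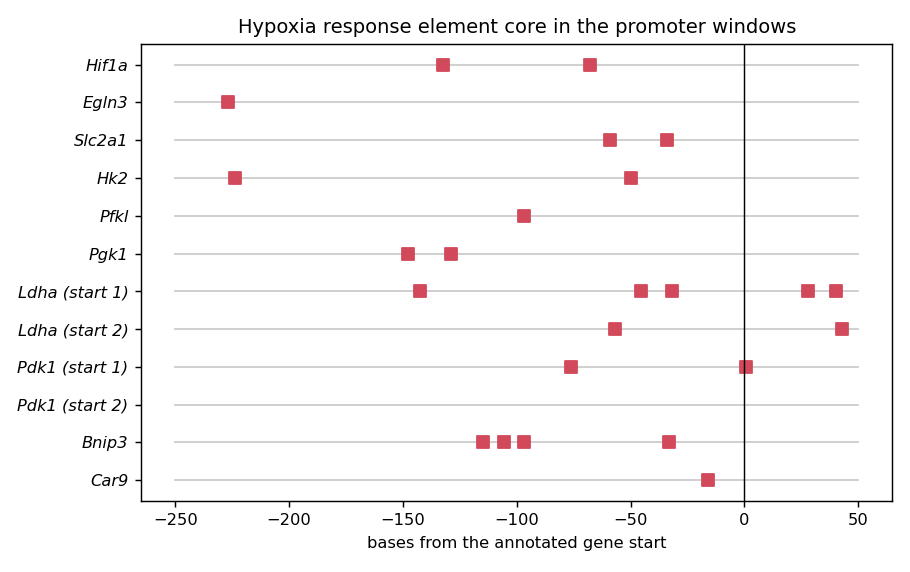
Positions of the core ACGTG or GCGTG, on either strand, in the 12 promoter windows of the 10 members. The x axis gives bases from the annotated gene start and each square is 1 site. Bnip3 has 4 sites, the first Ldha start has 5, and Egln3, Pfkl and Car9 have 1 each, that of Car9 starting 18 bases before the start and that of Egln3 229 bases before it.

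Sites were counted most often at Ldha and Bnip3. The first Ldha window held 5 sites, 2 of them CACGTG, and the Bnip3 window held 4, with 3 of them between 117 and 95 bases before the start. Slc2a1, Hk2, Pgk1, Hif1a, the first start of Pdk1 and the second of Ldha had 2 sites each, and 1 of those at Pdk1 spans the start and is left out of its printed stretch. The number of sites did not order the members by how far the arrays differed: Egln3, which differed most, had 1 site, and Ldha, which differed least, had the most.

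Of the 10 members, 9 lay above background on both arrays, and the exception was Car9. Background was set per array as the 95th percentile of 1035 olfactory receptor probe sets, genes that fibroblasts are not known to transcribe, at log2 7.15 on replicate 1 and 7.17 on replicate 2. Over all 19751 named genes, 67.3% passed this limit on both arrays. So did 14 of 34 measured genes restricted to other tissues. The same 9 members passed a stricter limit (8.08 and 8.18) from 35 probe sets of tissue-restricted genes, which 49.8% of all genes passed. These 9 were lower on replicate 2 than on replicate 1 without exception, and of the 13577 genes tested (mean level above the mean limit) 48.8% were lower and 51.2% higher there.

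**Figure D2:**
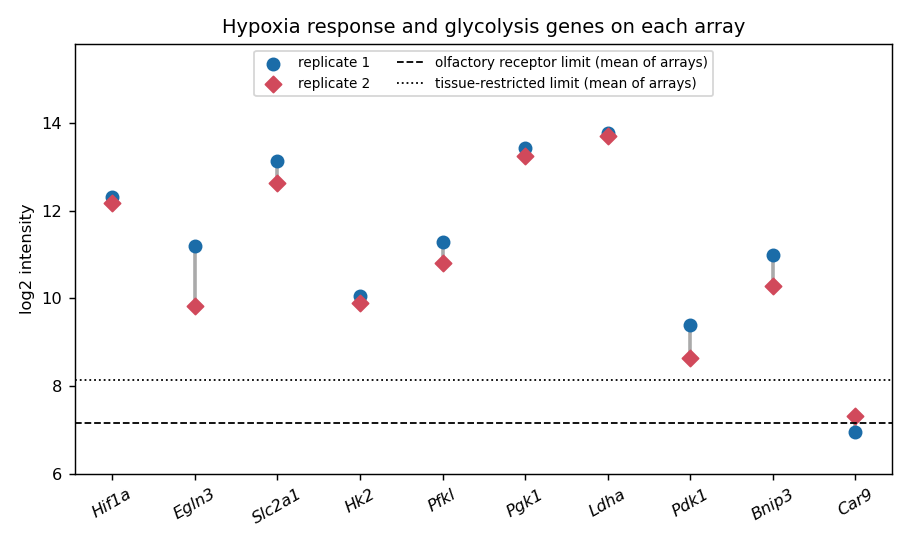
Log2 intensity (y axis) of the 10 members on replicate 1 (circles) and replicate 2 (diamonds), joined by a line, with the mean of each background limit as dashed and dotted lines. Every member but Car9 lies above both limits and has its circle above its diamond, with the widest gap for Egln3 (11.19 and 9.84). Heights of different genes are not comparable, since probes differ in binding.

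Among the oxygen sensing genes, the widest gap between the arrays was in the sensor gene Egln3 and not in the transcription factor gene Hif1a. Hif1a, the oxygen-regulated alpha subunit, had log2 intensities of 12.31 on replicate 1 and 12.18 on replicate 2, a mean of 12.24 ± 0.09 (SD, n = 2) and a 1.09-fold difference. Egln3, a prolyl hydroxylase (PHD3) whose own gene is a known HIF target, had 11.19 and 9.84, a mean of 10.51 ± 0.96. It was 2.56-fold lower on replicate 2, and only 18 of the 13577 genes tested had a more negative difference. The other hydroxylases were Egln1 at 11.23 and 10.95, 1.21-fold lower, and Egln2 at 10.08 and 10.13, 1.04-fold higher. The second alpha subunit Epas1 (HIF-2 alpha) was at 10.39 and 10.35, and the partner Arnt at 11.24 and 11.50. Hif3a (6.56 and 6.63) lay below the limit and was the only one of 18 oxygen sensing genes not above it on both arrays. The stricter limit was passed by 15 of the 18.

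A tested gene was called lower or higher where the brighter array read at least 25% above the dimmer one on the linear scale. The calls are a description with 1 array a side. By this rule 5 of the 9 tested members were lower on replicate 2 (Egln3, Pdk1, Bnip3, Slc2a1 and Pfkl) and 0 higher. Over all genes tested, 5.65% were lower and 7.86% higher. Car9 was not tested, since its mean level lay under the mean limit, and so could not be called. At least 1.5-fold lower were 3 of the 9 (Egln3, Pdk1 and Bnip3) against 1.91% of all genes, and 2-fold lower was Egln3 alone against 0.368%. None was higher by either fold, against 2.87% and 1.05%. In the whole oxygen sensing list, 1 of 17 tested genes was lower, Egln3, and 1 higher, P4htm (7.77 and 8.27), a transmembrane prolyl hydroxylase whose mean lay under the stricter limit. The median difference of that list was -0.01, against 0.0046 over all genes tested. Vhl (9.66 and 9.78) and Hif1an (9.61 and 9.73), the ligase subunit and the asparagine hydroxylase that also restrain HIF, differed by 1.08-fold and 1.09-fold.

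Glucose uptake was represented by Slc2a1, the basal transporter GLUT1. It had 13.14 on replicate 1 and 12.63 on replicate 2, a mean of 12.89 ± 0.36 and 1.42-fold lower on replicate 2. Differences shrink at high intensity on these arrays, and of 422 other genes with a mean level within 0.5 of Slc2a1, 3 had a difference as negative. Its paralogs did not share the direction: Slc2a3 (GLUT3) was at 7.98 and 8.38, 1.32-fold higher, and Slc2a13 at 9.09 and 9.43, 1.27-fold higher, a call lost after quantile normalisation. The replicate 1 value of Slc2a3 lay under the stricter limit. Slc2a6, Slc2a8, Slc2a9 and Slc2a10 were between 1.02-fold and 1.22-fold higher on replicate 2. Slc2a4, the insulin-responsive transporter, was at 7.59 and 7.57. Slc2a2 and Slc2a12 lay below the limit and Slc2a5 passed it on 1 array. Of the 16 glucose and lactate transporter genes, 9 passed the stricter limit on both arrays, beside 49.8% of all genes.

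For lactate, the exporter gene Slc16a3 (MCT4), a known HIF target, differed like Slc2a1, with 11.89 and 11.43 and 1.38-fold lower on replicate 2. Slc16a1 (MCT1), which carries lactate both ways, was at 10.35 and 10.24, and their chaperone Bsg at 12.94 and 12.98. Of 13 transporter genes tested, 2 were called lower and 2 higher, beside 5.65% and 7.86% of all genes tested. Their median difference was 0.04. Slc16a7 (6.69 and 7.54) passed the limit on replicate 2 alone, at least 1.31-fold higher there.

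The glycolytic enzymes differed little, with Pfkl as the exception. Hk2, the inducible hexokinase that traps glucose, had 10.05 and 9.89, a mean of 9.97 ± 0.11. Pfkl, the liver-type phosphofructokinase subunit of the committed step, had 11.30 and 10.82, a mean of 11.06 ± 0.34 and 1.39-fold lower on replicate 2. Its sister subunits were slightly higher there, Pfkm at 9.90 and 10.08 and Pfkp at 10.10 and 10.21.

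Further down the pathway, Pgk1, which makes the first ATP of glycolysis, had 13.44 and 13.26, a mean of 13.35 ± 0.13 and a 1.14-fold difference. Ldha, which reduces pyruvate to lactate, had 13.78 and 13.69, a mean of 13.73 ± 0.06 and 1.06-fold. These are among the brightest probe sets, where small differences are the rule: of 84 other genes within 0.5 of Ldha's level 17.9% had a difference as negative, and of 191 near Pgk1 6.28% did. Hk1 (11.19 and 11.08) and Ldhb (1.13-fold lower on replicate 2) differed about as little as the paralogs among the members. The testis genes Pgk2 and Ldhc were below the limit on both arrays, and the leukocyte hexokinase Hk3 passed on 1.

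In the glycolytic list, 17 of 22 measured enzymes lay above the limit on both arrays, and the 5 that did not were Hk3, Gapdhs, Pgk2, Pgam2 and Ldhc, genes known from germ cells, muscle or leukocytes. The stricter limit was passed by 14 of the 22, beside 49.8% of all genes. Of 18 tested, 15 were lower on replicate 2, beside 48.8% of all genes tested. By the 25% rule only Pfkl was lower, beside 5.65% of all genes tested, and the median difference was -0.11. The median without the 4 members was also -0.11, over 14 genes. Tpi1 (13.02 and 12.72) and Eno3 (11.78 and 11.48) came nearest, each 1.23-fold lower. Gapdh, Gpi1 and Eno1 had no probe set of their own and were not analysed here.

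**Figure D3:**
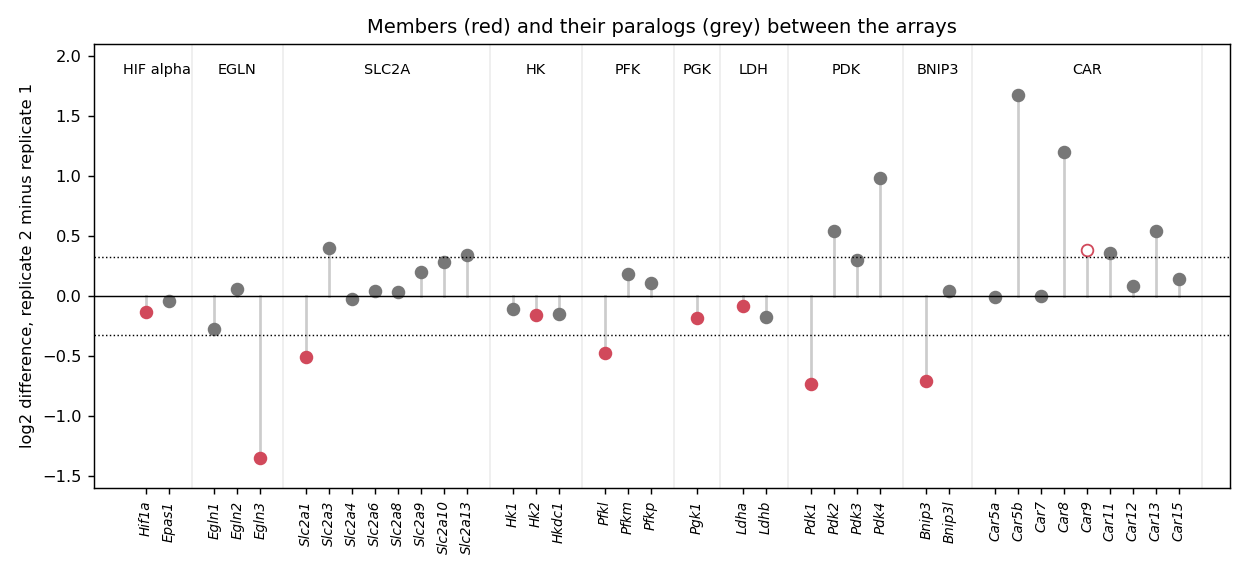
Log2 difference, replicate 2 minus replicate 1 (y axis), of the members (red) and of those paralogs above the background limit on both arrays (grey), grouped by gene family. Dotted lines mark the 25% rule. The open symbol is Car9, which passed the limit on 1 array and lies above the upper dotted line, but was not tested. Egln3, Slc2a1, Pfkl, Pdk1 and Bnip3 lie below the lower dotted line, while no grey symbol does, and Slc2a3, Slc2a13, Pdk2, Pdk4, Car5b, Car8, Car11 and Car13 lie above the upper one.

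The pyruvate dehydrogenase kinases split. These kinases switch off pyruvate dehydrogenase and so hold pyruvate back from the citric acid cycle. Pdk1, the HIF-induced member, had 9.39 and 8.65, a mean of 9.02 ± 0.52 and 1.67-fold lower on replicate 2. Pdk4, known for induction by fasting and FOXO factors, had 10.78 and 11.76, 1.98-fold higher there, and Pdk2 had 9.33 and 9.87, 1.45-fold higher. Pdk3 (10.82 and 11.12) was 1.23-fold higher. Pdk1 was thus the only one of 4 kinase genes that was lower on replicate 2, and with 1 array a side the contrast has no replicate check.

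Genes of the enzyme that the kinases act on differed less. The subunit genes Pdha1 (11.84 and 11.92), Pdhb (8.65 and 8.65) and Dlat (11.19 and 11.05) differed by at most 1.10-fold, and the phosphatase genes Pdp1 (9.84 and 9.87) and Pdp2 (7.62 and 7.70) by at most 1.06-fold. The phosphatase regulator Pdpr was at 8.88 and 9.35, 1.39-fold higher. All 13 measured genes of pyruvate entry lay above the olfactory receptor limit, and 12 passed the stricter one. Of the 13, 1 was called lower and 3 higher, beside 5.65% and 7.86% of all genes tested. Their median difference was 0.08.

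Bnip3, a mitochondrial outer membrane protein that recruits the autophagy machinery, had 10.99 and 10.28, a mean of 10.64 ± 0.50 and 1.64-fold lower on replicate 2. Both of its probe sets had the lower value there, 11.57 and 10.76 on one and 10.41 and 9.81 on the other, which are 1.76-fold and 1.52-fold. Its paralog Bnip3l (NIX), also a mitophagy receptor, was at 12.32 and 12.36. Pink1, the kinase of the parkin route of mitophagy, was at 9.51 and 10.12, 1.53-fold higher. Of 7 mitophagy genes, all above the limit, 1 was called lower and 1 higher, beside 5.65% and 7.86% of all genes tested.

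Car9, the surface carbonic anhydrase that is one of the most HIF-dependent genes in tumours, gave no clear signal. It had 6.95 on replicate 1, below the limit, and 7.33 on replicate 2, just above it, a mean of 7.14 ± 0.27. Its mean lay under the mean limit, so it was not among the genes tested, and its difference is given as at least 1.13-fold higher on replicate 2. It was the only member with a higher value there. Car12, the other tumour-associated surface enzyme, was at 7.55 and 7.64, above the olfactory receptor limit and below the stricter one.

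**Figure D4:**
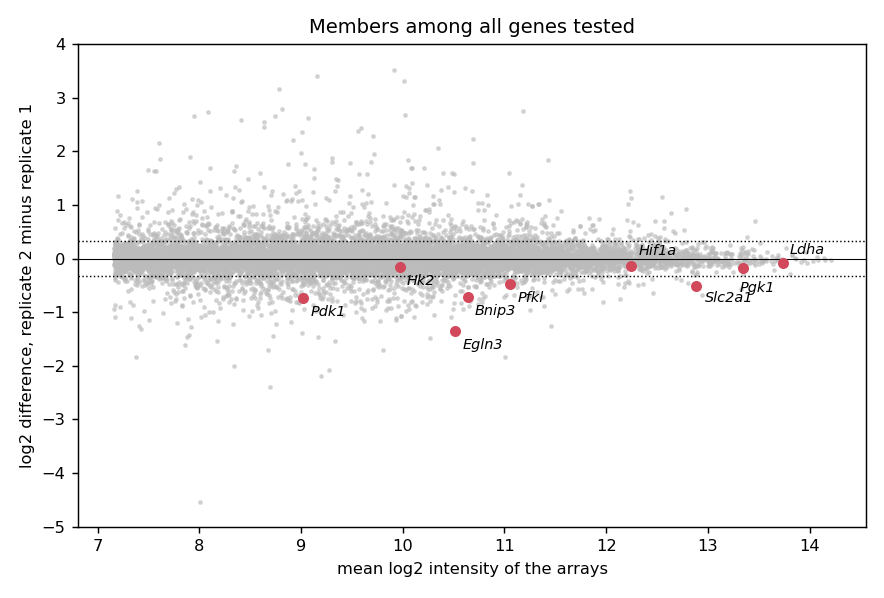
Log2 difference, replicate 2 minus replicate 1 (y axis), against the mean log2 intensity (x axis) for the 13577 genes tested (grey) and the 9 members among them (red). Dotted lines mark the 25% rule. All 9 lie below 0, Egln3 (-1.35) among the 19 most negative genes of all, and the spread of the grey points narrows to the right.

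Read against genes of like intensity, Egln3, Slc2a1, Bnip3, Pdk1 and Pfkl had differences that few other genes matched. Within 0.5 of its mean level, a difference as negative as that of the member was found in 0.0777% of other genes for Egln3 (2 of 2573), 0.711% for Slc2a1, 0.892% for Bnip3 and 1.41% for Pdk1. For Pfkl the share was 1.91%. For Hif1a and Hk2 it was 15% and 18.9%, so these genes lay inside the common range. This comparison was added after the values were seen. The members were chosen with their differences known, so these shares are a description and not a test.

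The wider list of HIF targets outside glycolysis, of which 38 of 40 measured genes lay above the limit, was divided. It holds 5 of the members. Despite its name, it also holds genes of glucose uptake (Slc2a1 and Slc2a3), of pyruvate entry (Pdk1) and of phosphofructokinase control (Pfkfb3 and Pfkfb4). Of 38 tested genes, 10 were called lower on replicate 2 and 5 higher, and the median difference was -0.10. With the members left out, 6 of 34 were lower and 5 higher. Both were larger shares than over all genes tested (5.65% lower and 7.86% higher). The median difference of these 34 was -0.0044, close to that of all genes tested (0.0046).

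Those lower besides the members were Tfrc, the transferrin receptor (11.35 and 10.68, 1.60-fold), Hmox1, heme oxygenase (12.64 and 12.26), Fam162a, a mitochondrial protein of hypoxic cell death (11.57 and 11.20), Gbe1, the glycogen branching enzyme (10.51 and 10.14), Pfkfb3, the kinase that makes the activator of phosphofructokinase (9.68 and 9.33), and Kdm3a, a histone demethylase (9.94 and 9.62). Those higher were Rora (8.59 and 9.16), Slc2a3, Pfkfb4 (9.55 and 9.92) and the collagen-modifying hydroxylases P4ha2 (10.46 and 10.80) and Plod1 (11.46 and 11.81). Vegfa, the angiogenic factor, was at 12.45 and 12.24 and Adm at 11.52 and 11.41, neither of them called. Only Car9 and Epo, the kidney hormone gene (6.02 and 6.01), did not pass the limit on both arrays. In this list 22 of 25 genes other than the members with a promoter window held a core site, beside 65.3% of the genes tested. The list was made of HIF targets, so this count is not independent of how it was chosen.

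**Figure D5:**
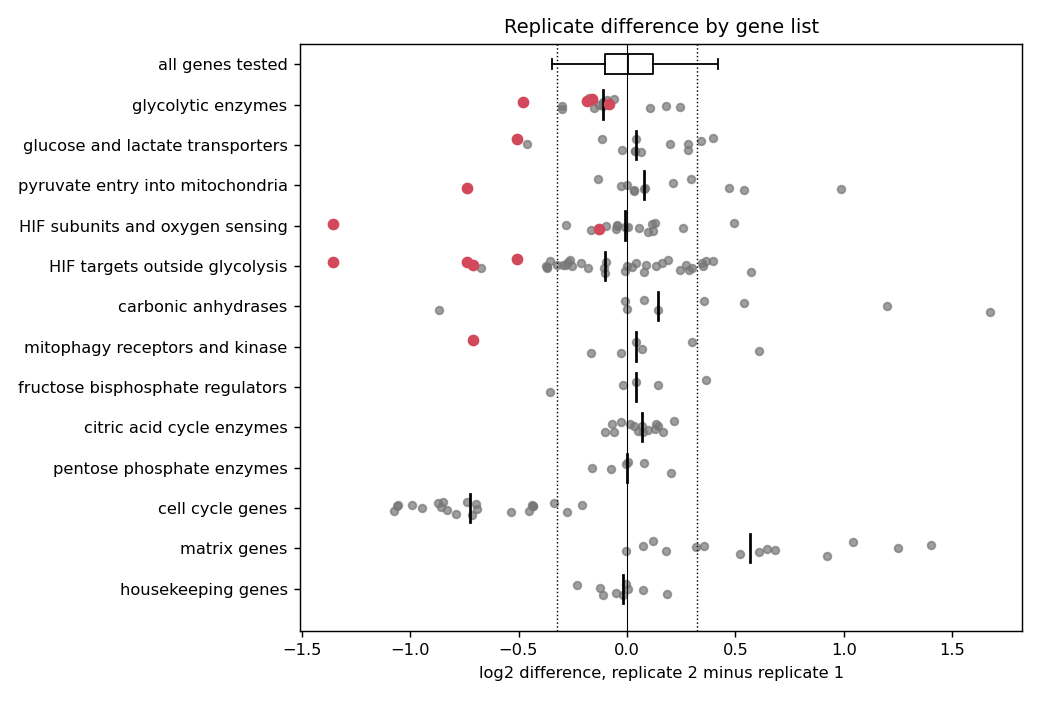
Log2 difference, replicate 2 minus replicate 1 (x axis), for each tested gene of 13 lists, with members in red and the list median as a black bar, under a box for all 13577 genes tested (box between the lower and upper quartiles, whiskers from the 5th to the 95th percentile). Dotted lines mark the 25% rule. Egln3, Pdk1, Bnip3, Slc2a1 and Pfkl lie left of the lower dotted line and Hk2, Pgk1, Ldha and Hif1a inside it, the medians of the 7 lists that hold a member lie between -0.11 and 0.14, and cell cycle genes (-0.72) and matrix genes (0.57) lie apart.

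Cell cycle genes differed in the members' direction on the same arrays, matrix genes in the opposite direction, and housekeeping genes little. Of 22 cell cycle genes, 20 were called lower on replicate 2 and 0 higher, with a median difference of -0.72 and Mki67 at 10.52 and 9.45. Of 14 tested matrix genes, 9 were higher and 0 lower, with a median of 0.57. Over all genes tested, 5.65% were called lower and 7.86% higher. Housekeeping genes had a median of -0.02, with 0 of 9 called in either direction. The part of cell division or culture state in the members' differences was not tested. Of 7048 tested genes with a core site in the promoter, 5.46% were called lower on replicate 2 and 6.98% higher. Of 3744 without one, 5.50% were lower and 8.79% higher.

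All 12 FRC markers lay above the olfactory receptor limit, among them Pdpn at 12.60 and 12.73. The stricter limit was passed by 10 of the 12, and not by Il7 or Ccl19 on replicate 2. Among all named genes, 67.3% passed the olfactory receptor limit on both arrays and 49.8% the stricter one. Some FRC markers also differed, with 3 of the 12 called lower and 2 higher, beside 5.65% and 7.86% of all genes tested. On replicate 2, Il7 (8.66 and 7.74, 1.89-fold), Cxcl12 (9.96 and 9.63) and Ccl19 (8.17 and 7.85) were called lower. Thy1 (12.27 and 12.69) and Col1a1 (12.50 and 13.03) were called higher there. Markers of other cell types passed the olfactory receptor limit in part. These were 2 of 5 for lymphatic endothelium, 3 of 7 for blood endothelium and 2 of 7 for leukocytes. For erythroid cells 0 of 4 passed, and for epithelium 3 of 6. Of these 29 markers, 1 passed the stricter limit, the keratin gene Krt8. The defining markers Prox1 (6.44 and 6.40) and Ptprc (6.41 and 6.47) lay below the olfactory receptor limit. Endothelial markers moved both ways: Flt4 (8.41 and 7.79, 1.53-fold) and Cdh5 (8.05 and 7.53, 1.44-fold) were lower on replicate 2, Emcn (7.64 and 8.40) was 1.70-fold higher, and Tek (6.93 and 7.68) was at least 1.45-fold higher. Summed intensities on replicates 1 and 2 were 846 and 756 for lymphatic endothelium, 1055 and 1191 for blood endothelium, 791 and 763 for leukocytes, 479 and 479 for erythroid cells, and 1060 and 1079 for epithelium. The part of these markers in the members' differences was not tested. In RNA pooled from many cells, fewer cells expressing a gene and less RNA per cell cannot be told apart.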

How the data were processed

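Total RNA of 2 cultured FRC samples was measured on oligonucleotide arrays. The deposited table holds linear intensities, 1 for each probe set in each sample, made by the authors with RMA (background subtraction, quantile normalisation and probe set summary) per the submitters' processing notes. Its version, the arrays normalised together and a genome build are not given in the sources used here. RMA evens out the arrays' distributions and compresses low signal. Array medians were 286.0 and 285.7, and 2 arrays limit the precision.

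Here, log2 was taken (Python 3.11.15, pandas 2.3.3). Of 24679 probe sets, 21354 had a single gene, and others were left out. Probe sets of a gene were averaged. Symbols were checked in RefSeq's gene table (GRCm38.p6), where 21277 matched and 0 changed. Differences are replicate 2 minus replicate 1, without p-values, since there is 1 group. The counting was checked on simulated data. Where 1 array lay below its limit, the fold is a lower bound with that array set to the limit.

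Members and lists were chosen with earlier results of these data known. The rule for named genes took the members, their paralogs, up to 5 called genes each way and the smaller side of the limit where 5 or fewer; Slc16a1, Bsg, Vhl, Hif1an, Arnt, Tpi1, Eno3, Vegfa, Adm, Hmox1, Fam162a, Gbe1, Pfkfb3, Kdm3a and the dehydrogenase and phosphatase genes fall outside it and were chosen after their values were seen. Alternatives were other limits, probe set choices, normalisations (quantile, loess with span 0.3, median centring), filters and folds.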

Additional observations from a re-analysis of the deposited data

How the results depend on the processing

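The number of members above background was 9 with the 99th percentile, the stricter limit and either probe set choice, and between 9 and 10 with 1 array left out. The 70 recomputed member differences kept their sign. Many could not change: the level filters leave a difference as it is, and the probe set choice alters that of Bnip3 alone. That of Ldha moved most in proportion, from -0.083 to -0.0502 after quantile normalisation, that of Egln3 lay between -1.38 and -1.35, and that of Bnip3 between -0.82 and -0.60. Members called lower were 3 at 1.5-fold and 1 at 2-fold (Egln3), and 1 member, Car9, was called higher without the level filter. Over all genes, 259 were lower and 389 higher at 1.5-fold, and 50 and 142 at 2-fold, against 767 and 1067 by the 25% rule. In the 7 pooled lists with a member, 13 lower and 15 higher became 5 and 4 at 1.5-fold, and 1 and 2 at 2-fold. The count of member promoters with a site was 8 for ACGTG searched by itself and 5 for GCGTG. Of 126 recomputed counts in single lists, 103 stayed within 1.5 times and 23 did not, 20 of these at a higher fold. The other 3 were transporters called higher, 1 in place of 2 after quantile normalisation, and, under the stricter level filter, oxygen sensing genes called higher and carbonic anhydrases called lower, 0 in place of 1 each, since P4htm and Car2 were no longer tested. No paired analysis was possible because the study has 1 group, and a replicate difference cannot be recomputed with 1 array. Low signal limits Car9.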

Other observations

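Carbonic anhydrase genes, which set cellular pH and supply bicarbonate, spanned the widest range of differences of the 7 lists that hold a member, from -0.87 to 1.67, though the HIF target Car9 was near background. Of 16 genes, 8 passed the olfactory receptor limit on both arrays and 4 the stricter limit. Car5b, a mitochondrial enzyme, was at 8.29 on replicate 1 and 9.97 on replicate 2, 3.19-fold higher. Car8, a family protein without enzyme activity, was at 8.22 and 9.42, 2.30-fold higher. Car13 (10.52 and 11.06) and Car11 (8.26 and 8.62) were 1.45-fold and 1.28-fold higher. Car2 was at 7.78 and 6.91, at least 1.52-fold lower on replicate 2, with both values under the stricter limit. Of 9 tested, 4 were called higher and 1 lower, beside 7.86% and 5.65% of all genes tested.

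The neighbouring routes of carbon differed little. None of the 15 measured citric acid cycle genes and none of the 6 pentose phosphate genes differed by the 25% rule, counts of 0 beside a share of 5.65% lower and 7.86% higher over all genes, with 1 array a side and no test. The median differences were 0.07 and 0.0008. Of the genes that set fructose bisphosphate levels, Pfkfb3 was lower and Pfkfb4 higher, Pfkfb2 (9.45 and 9.49) and Tigar (9.40 and 9.38) were not called, and Fbp1 was below the limit.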
